A study of Mus musculus with 3 samples.

Results

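The cells described here were fibroblasts of mouse dorsal skin that carried transcripts of most of the genes Arhgap20, Dtna, Bmp8a, Procr and Pla1a. Cells with 500 or more genes and no more than 10% mitochondrial UMIs entered, a UMI being the random tag given to each captured RNA molecule. It was a fibroblast when the matrix genes Dcn, Lum, Col1a1, Col1a2 and Col3a1 made up at least 1% of its UMIs and it had no UMI of Ptprc, Epcam or Cdh5. It was a member when at least 4 of the 5 genes had a UMI and fewer than 4 of Smpd3, Rasgef1c, Sema3e, Aldh1a3, Dpp4 and Ebf2 did. By this rule 320 of 13214 fibroblasts and of 32377 kept cells were members, 8 in CON, 218 in UV and 94 in Rux. The members were thus chosen by the detection of these genes, and Hmox1 was singled out with them, so their values are a description.

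Fibroblasts make and remodel the collagen network of the dermis and also secrete chemokines and growth factors. Some of them, marked by Pi16 and Dpp4, lie in the fascia and around vessels and are known as a source of other fibroblasts. Procr is the receptor of protein C, an anticoagulant enzyme. Pla1a cuts phosphatidylserine to a lysophospholipid signal, Bmp8a is a secreted ligand of the TGF-beta superfamily, Arhgap20 is a GTPase-activating protein, and Dtna belongs to the dystrophin complex. Hmox1, haem oxygenase, degrades haem and is a textbook target of NRF2, the transcription factor of the oxidative stress response, which binds DNA at antioxidant response elements.

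Wild-type C57BL/6J mice, labelled female and 8 weeks old before the 12 weeks of the experiment, gave full-thickness dorsal skin for 1 droplet 3' single-cell library per group, and the number of mice in a library was not given in the sources used here. CON mice were not irradiated and received the ointment base, a DMSO vehicle. UV mice received the same base and 12 weeks of mixed UVA (0.60 mW/cm2) and UVB (3.5 mW/cm2) on alternate days. Rux mice had the same irradiation, each exposure followed by an ointment of 1.5% ruxolitinib, a JAK1/2 inhibitor. Skin was taken a day after the last exposure, and no library of ruxolitinib without UV was analysed here.

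The matrices held 13170, 12411 and 11287 cells and 165337289, 133972374 and 131570327 UMIs in CON, UV and Rux. Members carried 74863, 2002066 and 1496699 UMIs, with a median of 8604, 8656 and 14166 per cell against 5825, 6939 and 9656 in the other fibroblasts. A level is the summed UMIs of a class scaled to 1000000 UMIs (CPM), so 1 UMI in the members equalled 13.4 CPM in CON, 0.499 in UV and 0.668 in Rux. Intervals are exact 95% intervals that cover counting error only, and with 1 library per group no test was possible and no difference between libraries has a replicate check. The label of female mice went against the data in all 3 libraries: over all kept cells the Y-linked gene Ddx3y had 110, 116 and 122 CPM in CON, UV and Rux, and Xist 0.117, 0.107 and 0.101 CPM. The CON and UV libraries shared 50 cell barcodes, CON and Rux 28, and UV and Rux 40, and none of these was a member in both libraries.

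Members were rare in CON and most frequent in UV. They were 0.244% of fibroblasts in CON (0.105 to 0.480), 4.22% in UV (3.69 to 4.81) and 1.97% in Rux (1.60 to 2.41). The share in UV was 17.3 times that in CON and 2.14 times that in Rux. The rule asks for some detected genes and excludes on others, so its share depends on depth in either direction, and the Rux cells were the deepest. When every fibroblast was thinned to 5000 UMIs, with 1322, 1606 and 892 shallower cells left out, the shares were 0.255%, 7.29% and 1.62%, and the UV share was 4.49 times that in Rux. On the same cells not thinned the shares were 5.60% in UV and 2.37% in Rux, so that thinning raised the share in UV and lowered it in Rux.

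The gap between UV and Rux depended on the number of genes asked for. Of the UV members 74 of 218 lacked a Dtna UMI, against 65 of 94 in Rux and 6 of 8 in CON. With 3 of the 5 genes the shares were 2.04%, 9.07% and 9.24% in CON, UV and Rux, so that Rux no longer lay below UV. With Dtna left out and 3 of the other 4 genes required they were 1.83%, 8.08% and 8.66%, and with all 5 they were 0%, 1.43% and 0.231%, where 0 of 3283 CON fibroblasts allows a share of up to 0.112%. A matrix threshold of 2% of UMIs left 0.126%, 1.96% and 1.51%, since 165 of the 218 UV members and 58 of the 94 Rux members lay below it. The members' median share of matrix UMIs was 1.56% in CON, 1.54% in UV and 1.68% in Rux, close to the limit of the rule.

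**Figure D1:**
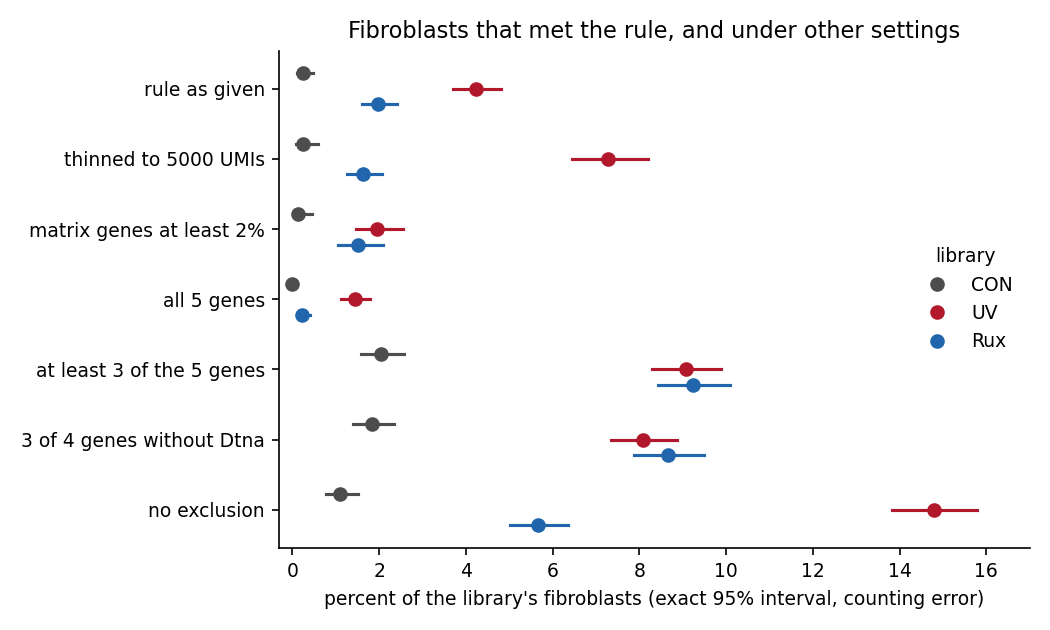
Percent of each library's fibroblasts that met the rule (x axis) as given and under 6 other settings (y axis), with exact 95% intervals for CON, UV and Rux. UV lies above Rux by the rule as given, and Rux reaches UV when 3 genes are enough.

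Most members stood next to a larger set of cells that the exclusion removed. Cells with at least 4 of the 5 genes and at least 4 of the 6 excluded genes numbered 28, 545 and 176 in CON, UV and Rux, and are called cells of both sets below. Without the exclusion the shares were 1.10%, 14.8% and 5.66%. Among the members, 155 of 218 in UV and 49 of 94 in Rux had exactly 3 of the excluded genes, the largest number allowed. The members were thus the part of a wider group of Arhgap20, Procr and Pla1a cells in which fewer of the Dpp4, Smpd3 and Sema3e genes were detected.

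Neighbours in expression were found among each library's fibroblasts on principal components computed without 17 genes, among them the genes of the rule. In UV 21.8% of a member's 15 nearest neighbours were members, where members were 4.22% of the cells, and a further 47.9% were cells of both sets, which were 10.6% of the cells. In Rux 8.37% were members and 16.5% cells of both sets, where these were 1.97% and 3.69% of the cells. The other fibroblasts had 3.27% members among their neighbours in UV and 1.99% in Rux. On cells thinned to 5000 UMIs, 36.7% of the neighbours of UV members were members and 25.3% cells of both sets. These were then 7.29% and 6.25% of the cells. Rux members had 18.3% and 16.8% on thinned cells, where these were 1.62% and 1.19% of the cells. With the libraries placed together, 90.8% of the neighbours of UV members came from the UV library and 84.4% of those of Rux members from the Rux library. Members therefore lay closer to each other and to cells of both sets than their numbers alone give, but they were not a separate cluster.

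The receptor gene Procr (ENSMUSG00000027611, GRCm38, plus strand, chr2:155751117-155755471) was the most abundant of the 5 genes. It had 962, 1512 and 587 CPM in the members of CON, UV and Rux, against 373, 585 and 308 CPM in the other fibroblasts. Arhgap20 (ENSMUSG00000053199, plus strand, chr9:51765337-51853856) had 267, 781 and 219 CPM against 36.8, 219 and 72.7 CPM. The enzyme gene Pla1a (ENSMUSG00000002847, minus strand, chr16:38396117-38433145) had 281, 291 and 186 CPM against 30.6, 93.1 and 85.9 CPM. UV members were highest for Procr and Arhgap20, and the other fibroblasts followed the same order between UV and Rux.

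The ligand gene Bmp8a (ENSMUSG00000032726, minus strand, chr4:123312645-123343252) had 200, 252 and 142 CPM in members and 12.4, 57.6 and 27.6 CPM in other fibroblasts of CON, UV and Rux. Dtna was the least abundant of the 5, with 26.7, 196 and 40.8 CPM in members and 3.82, 53.8 and 12.7 CPM in other fibroblasts. For all 5 genes the level in the other fibroblasts was higher in UV than in CON, by log2 2.57 for Arhgap20, 3.81 for Dtna, 2.22 for Bmp8a, 0.65 for Procr and 1.61 for Pla1a. Dpp4 fibroblasts, which had at least 4 of the 6 excluded genes and fewer than 4 of the 5 genes and numbered 97, 463 and 293 cells, had Pla1a at 217, 243 and 228 CPM. The log2 ratio of Pla1a in members to Dpp4 fibroblasts, whose sign the rule favours, was 0.26 (0.10 to 0.41) in UV and −0.30 (−0.50 to −0.10) in Rux, the latter 0.44 without the exclusion.

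**Figure D2:**
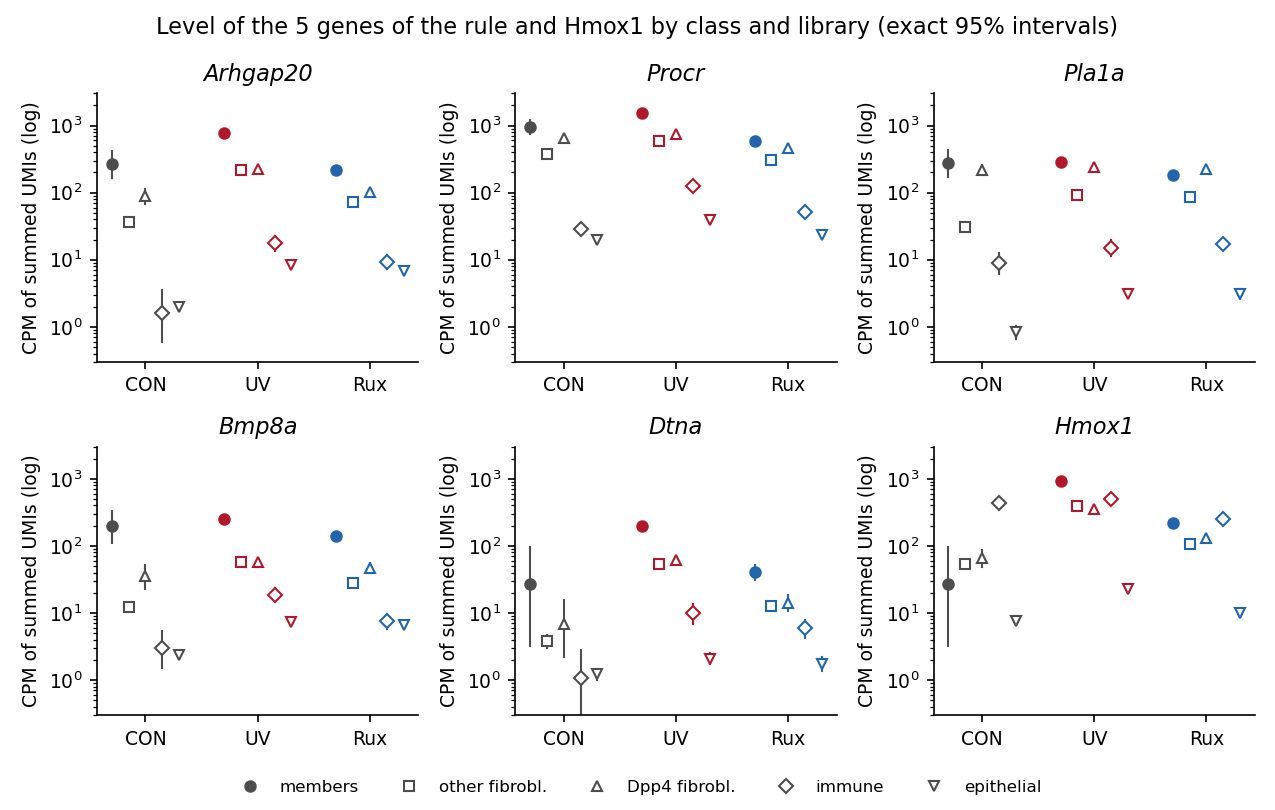
Level of the 5 genes of the rule and of Hmox1 (y axis, CPM of summed UMIs, log scale) in members, other fibroblasts, Dpp4 fibroblasts, immune and epithelial cells of each library (x axis), with exact 95% intervals. The higher level of the 5 genes in members follows from the rule. Hmox1 is highest in the UV members at 937 CPM. The rule did not use Hmox1, but it was singled out with these genes, so its level is a description too.

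Hmox1 (ENSMUSG00000005413, plus strand, chr8:75093621-75100589) was not used by the rule but was singled out with its genes, so its values in members are a description. Its level in members was 26.7 CPM in CON, from 2 UMIs, 937 in UV and 222 in Rux, and in the other fibroblasts 54.0, 388 and 106 CPM. UV members exceeded other UV fibroblasts by log2 1.27 (1.20 to 1.34) and Rux members other Rux fibroblasts by 1.08 (0.91 to 1.23). The other fibroblasts include the cells of both sets, 545 in UV and 176 in Rux, here and in the comparisons below. The level in those cells alone is not given here. UV members also lay above the immune cells of their library, at 493 CPM, and far above epithelial cells, at 22.7 CPM. With each cell thinned to 5000 UMIs, a Hmox1 UMI was found in 81.4% of UV members and 54.2% of other UV fibroblasts, and in 37.0% and 27.9% in Rux. The unthinned shares of members were 25%, 89.9% and 59.6% in CON, UV and Rux.

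Hmox1 increased stepwise with the number of the 5 genes detected in a cell thinned to 5000 UMIs. In UV it was 195 CPM in the 885 fibroblasts with none of the genes, 256, 455, 644 and 874 CPM with 1 to 4, and 1238 CPM in the 172 with all 5. In Rux it was 81.9 CPM with none, 108, 145, 172 and 279 CPM with 1 to 4, and 511 CPM in the 18 cells with all 5. In CON it was 44.5, 52.9, 67.8 and 129 CPM with 0 to 3 of the genes, 53.3 CPM from 4 UMIs in the 15 cells with 4, and 200 CPM from 3 UMIs in the 3 cells with all 5. Of the thinned UV cells with 4 and with all 5 genes, 43.4% and 51.2% had at least 4 of the excluded genes. The high levels there thus include cells of both sets and not members alone. The summed NRF2 targets went from 2532 to 4733 CPM in UV and from 2347 to 3700 CPM in Rux, while the collagens outside the rule went down from 4711 to 2212 and from 4451 to 2033 CPM. In CON the NRF2 targets went from 2454 CPM with none to 4200 with 4 and 3067 in the 3 cells with all 5. The collagens there went from 4433 to 1787 and 1267 CPM. Adventitial genes and chemokines rose as well, from 9354 to 19674 and 7024 to 20035 CPM in UV. In Rux they went from 8311 to 18600 and 10147 to 36200 CPM. Immediate early and heat shock genes fell from 21127 to 11376 CPM in UV. In UV and Rux, and for the NRF2 targets and collagens in CON, the levels thus moved across all fibroblasts and not in members alone.

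**Figure D3:**
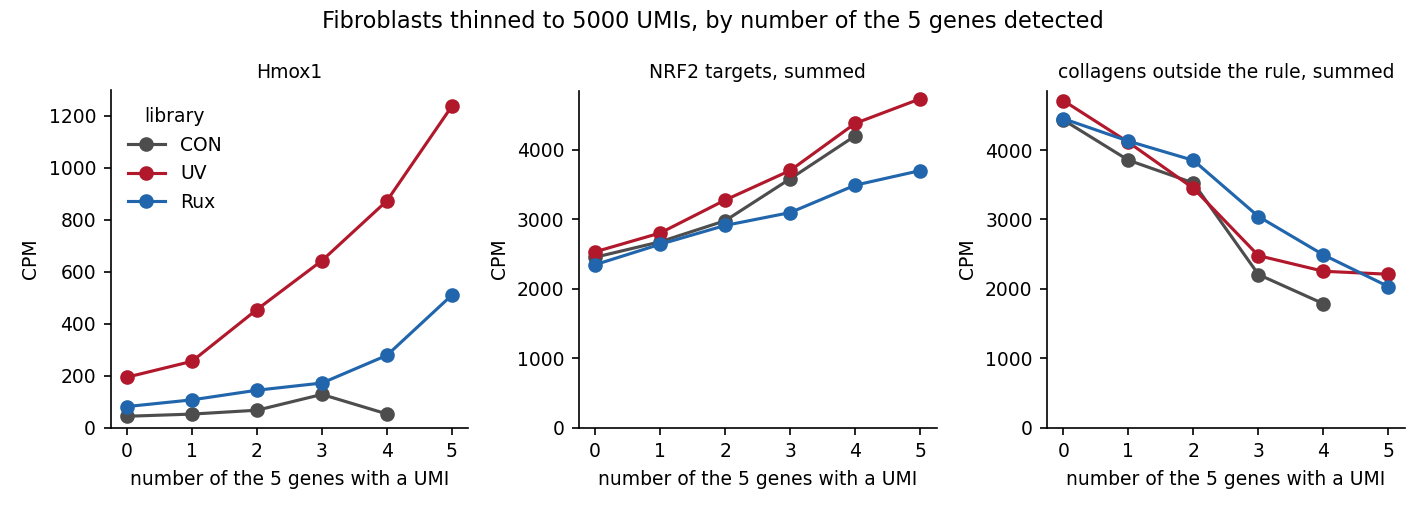
Level (y axis, CPM) of Hmox1, of the summed NRF2 targets and of the summed collagens outside the rule in fibroblasts thinned to 5000 UMIs, by the number of the 5 genes with a UMI (x axis), for each library. Hmox1 and the NRF2 targets are higher and the collagens lower with each step in UV.

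Most NRF2 targets were higher in members too. Compared with other fibroblasts, 113 of 5856 genes with enough UMIs, 1.93%, were at least 2-fold higher in UV members and 5.33% at least 2-fold lower, and in Rux 0.749% were higher and 1.55% lower. Of 22 NRF2 targets, a list without Hmox1, 17 passed the minimum in UV, of which 13 were higher in members, beside 44.9% of all genes, and 6 at least 2-fold, with a median log2 ratio of 0.72 where that of all genes was −0.05. In Rux 14 of 16 were higher, beside 49.5% of all genes, and 1 at least 2-fold, with a median of 0.43. A separate list of antioxidant genes had 12 of 19 lower in UV members, near the 55.1% of all genes that were lower, with a median of −0.36, and stood at −0.03 in Rux, and genes of haem and iron handling had medians of 0.07 and 0.06. Srxn1, which repairs oxidised peroxiredoxins, had 53.4, 343 and 219 CPM in the members of CON, UV and Rux and 71.7, 161 and 108 CPM in the others. Gclm, a subunit of the rate-limiting enzyme of glutathione synthesis, had 134, 258 and 87.5 CPM against 54.1, 117 and 54.9 CPM. Both were highest in UV members, by log2 1.09 and 1.15 over the other UV fibroblasts. Slc7a11, the cystine importer that feeds glutathione synthesis, stood at log2 1.48 in UV, from 73.9 against 26.6 CPM, Pgd of the pentose phosphate pathway at 1.22, and Nfe2l2, which encodes NRF2 itself, at 0.95.

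Promoters are shown for Procr, the rule gene with a match to the antioxidant response element, and for Srxn1 and Gclm, NRF2 targets that were higher in members. They are RefSeq sequences of GRCm38.p6 from 250 bases before to 50 after the annotated start, read 5' to 3' on the gene's plus strand at chr2:155750967-155751266, chr2:152105274-152105573 and chr3:122245307-122245606. The capitals mark a match to TGACNNNGC on either strand.
Procr: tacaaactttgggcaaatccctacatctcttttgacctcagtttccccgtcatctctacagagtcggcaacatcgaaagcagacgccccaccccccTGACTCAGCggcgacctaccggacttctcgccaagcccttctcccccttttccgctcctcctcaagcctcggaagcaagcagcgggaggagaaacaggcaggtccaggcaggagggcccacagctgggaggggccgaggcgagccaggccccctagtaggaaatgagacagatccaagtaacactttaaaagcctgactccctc
Srxn1: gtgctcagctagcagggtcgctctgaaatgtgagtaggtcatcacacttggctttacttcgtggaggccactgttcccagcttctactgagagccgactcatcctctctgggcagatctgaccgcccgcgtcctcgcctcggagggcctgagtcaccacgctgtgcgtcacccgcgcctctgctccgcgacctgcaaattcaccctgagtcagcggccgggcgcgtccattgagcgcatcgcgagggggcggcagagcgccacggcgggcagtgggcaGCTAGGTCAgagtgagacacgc
Gclm: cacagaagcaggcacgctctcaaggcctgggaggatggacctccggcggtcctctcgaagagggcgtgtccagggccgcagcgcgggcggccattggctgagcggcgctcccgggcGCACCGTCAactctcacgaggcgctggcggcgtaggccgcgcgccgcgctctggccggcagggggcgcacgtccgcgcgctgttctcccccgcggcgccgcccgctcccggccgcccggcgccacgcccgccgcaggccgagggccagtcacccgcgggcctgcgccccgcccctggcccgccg
The motif stood in 12.4% of 32851 promoters, and in a promoter of 14.0% of 27025 genes. Promoters of the chromosome that holds Dtna were left out of these and the following counts. Of the 22 NRF2 targets 18 had a promoter entry and 8 of these a match. Of the 5 rule genes and Hmox1, 3 had an entry and 1, Procr, a match, which overlapped a match to the AP-1 motif TGANTCA, held by 7.81% of promoters. None of the 12 genes with an entry among the 15 highest of the UV members had the motif. A match describes letters in this window and is not a binding site.

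Members carried more transcripts of chemokines that draw neutrophils and monocytes. Cxcl3, a neutrophil attractant, stood highest of the genes named by size in UV, with 159 CPM in members and 40.5 in other fibroblasts (log2 1.98, 1.80 to 2.15), and with 197 and 60.5 CPM in Rux (1.71, 1.53 to 1.88), while CON members had 0 UMIs. Without 1 Rux cell it had 116 CPM in Rux members, at log2 0.95 (0.71 to 1.17), and without the exclusion it stood at 0.98 in UV. Ccl2, the monocyte attractant, had 6131, 6951 and 6460 CPM in the members of CON, UV and Rux against 2154, 2890 and 3719 CPM in the others. Cxcl1, a further neutrophil attractant, had 9070, 6840 and 6768 CPM against 4019, 3574 and 4266 CPM. Ccl2 and Cxcl1 were thus high in members of every library and did not follow UV as Hmox1 did. Of the chemokine list, 9 of 14 genes were higher in UV members, where 44.9% of all genes were, and 5 at least 2-fold, where 1.93% of all genes were. Another 5 were lower in UV members, 2 of them at least 2-fold, beside 5.33% of all genes, and Cxcl12 stood at log2 −1.16. In Rux 12 of 15 of the list were higher, where 49.5% of all genes were, and 1 at least 2-fold. Cxcl14 went the other way in UV, with 31.5 CPM in members against 265 (log2 −3.06, −3.46 to −2.72), and was near equal in Rux at 587 and 558 CPM (0.07, −0.03 to 0.17). That equality rested on 1 cell, without which Cxcl14 stood at −0.39 (−0.51 to −0.28) in Rux, and with the rule applied to one part of the UMIs and levels read in the other it stood at −2.04.

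Vegfa, the endothelial growth factor, Ptx3 and Has2 were among the 15 highest genes of the UV members. Vegfa had 107, 345 and 132 CPM in members and 57.7, 120 and 113 CPM in other fibroblasts of CON, UV and Rux. It stood at log2 1.53 in UV and 0.23 in Rux. Ptx3, a soluble pattern recognition protein, stood at log2 1.48 in UV and 0.85 in Rux, Has2, a hyaluronan synthase, at 1.48 and 1.16, and Ptgs2, the inducible cyclooxygenase, at 1.11 and 0.61. Il6, an inflammatory cytokine, had 3206, 1751 and 760 CPM in members against 1121, 1084 and 468 CPM, so it was higher in members of each library and lower in Rux in both classes. Of the cytokine and growth factor list, 11 of 18 genes were higher in UV members and 16 of 21 in Rux members, beside 44.9% and 49.5% of all genes.

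**Figure D4:**
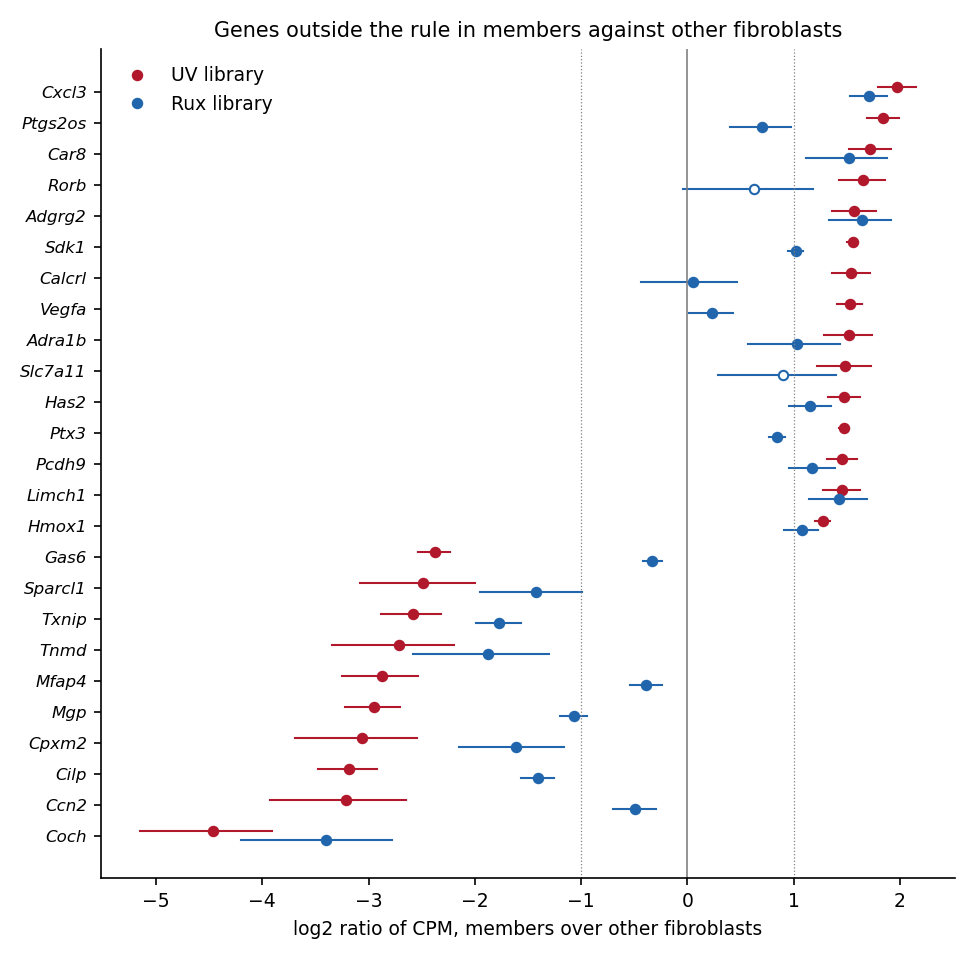
Log2 ratio of CPM in members over other fibroblasts (x axis) in the UV and Rux libraries for Hmox1 and genes among the 15 highest and 10 lowest of UV (y axis), with exact 95% intervals, and open points for genes below the minimum of UMIs or CPM in that library. Apart from Hmox1 the genes were chosen as the furthest apart in UV with the same direction in Rux, so a smaller ratio in Rux follows in part from the choice.

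Genes of adventitial and fascial fibroblasts were higher in members than in other fibroblasts, but mostly lower than in Dpp4 fibroblasts. Of the 21 such genes past the minimum, 20 were higher in UV members, beside 44.9% of all genes, 3 at least 2-fold, with a median log2 ratio of 0.41, and in Rux 19 of 20 were higher, beside 49.5%, with a median of 0.46. Pi16, a peptidase inhibitor that marks these cells, had 842, 1824 and 1289 CPM in members of CON, UV and Rux, 689, 1266 and 955 CPM in the others and 2186, 2441 and 1743 CPM in Dpp4 fibroblasts. Limch1, an actin-binding protein, stood at log2 1.45 over other fibroblasts in UV and 1.43 in Rux, and at 3.20 and 3.76 without the exclusion. Against Dpp4 fibroblasts the list had a median of −0.28 in UV, where 15 of 21 genes were lower beside 56.9% of all genes, and −0.39 in Rux, where 18 of 21 were lower beside 50.4%, but 0.06 in Rux without the exclusion. Dpp4 itself was part of the exclusion.

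Members lay above Dpp4 fibroblasts in some chemokines and in most NRF2 targets. Here 2.89% of genes were at least 2-fold higher and 5.78% lower in UV, and 2.14% and 2.19% in Rux. Cxcl3 stood at log2 3.83 (3.37 to 4.36) in UV and 2.05 (1.77 to 2.33) in Rux, from 11.1 and 47.6 CPM in Dpp4 fibroblasts, and at 1.29 (0.97 to 1.60) in Rux without 1 cell. Ccl2 stood at 1.56 and 0.82, Cxcl1 at 1.53 and 1.00, and Il6 at 1.34 and 1.31. Hmox1 was higher by 1.40 (1.30 to 1.51) in UV and 0.75 (0.54 to 0.95) in Rux, and Srxn1 by 1.30 and 1.74. In UV 8 of 14 listed chemokines were higher, 5 at least 2-fold, and 6 lower, 1 at least 2-fold, with a median of 0.34. In Rux 10 of 15 were higher, 5 at least 2-fold, and 5 lower, 2 at least 2-fold, with a median of 0.77. Of the NRF2 targets 13 of 18 were higher in UV and 14 of 16 in Rux, with medians of 0.70 and 0.25, beside 43.1% and 49.6% of all genes.

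Matrix genes were lower in UV members, while their place in Rux members depended on how members were chosen. Lower than in other fibroblasts were 55.1% of all genes in UV members and 50.5% in Rux members, at least 2-fold 5.33% and 1.55%. Of 19 collagens 18 were lower in UV members and 6 at least 2-fold, with a median log2 ratio of −0.67, while in Rux 10 of 19 were lower and the median was −0.04, which became −0.71 without the exclusion. Since Col1a1, Col1a2 and Col3a1 served to call fibroblasts, their level was limited from below only. Col1a1, a chain of the main dermal collagen, had 922, 2079 and 3689 CPM in members of CON, UV and Rux against 7532, 4408 and 4237 CPM in the others, and its log2 ratio in Rux was −0.20, or −0.42 without 1 cell. Of 34 other matrix genes 24 were lower in UV members, 13 at least 2-fold, and 16 of 34 in Rux, where the median of 0.09 became −0.51 with the divided UMIs. Coch, a secreted matrix protein, had 11.5 and 12.0 CPM in UV and Rux members against 258 and 131 CPM (log2 −4.46, −5.15 to −3.90, and −3.40, −4.20 to −2.78), and stood at −5.76 and −5.43 without the member cell with most of its UMIs. Ccn2, a matricellular target of TGF-beta signalling, had 11 against 104 CPM in UV and 136 against 192 CPM in Rux. Fn1, fibronectin, was higher in members, at log2 0.82 in UV and 0.62 in Rux.

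Immediate early and heat shock genes were lower in members, 23 of 27 in UV and 22 of 27 in Rux, beside 55.1% and 50.5% of all genes, with medians of −0.81 and −0.58. Fos, a subunit of the AP-1 transcription factor, had 855, 370 and 607 CPM in members against 3825, 1892 and 1953 CPM in the others of CON, UV and Rux. Genes of JAK-STAT signalling, the pathway ruxolitinib blocks, differed little in their median. Of 31 such genes 9 were higher in UV members and 16 in Rux members, where 44.9% and 49.5% of all genes were, 3 were at least 2-fold lower in UV, beside 5.33% of all genes, and the medians were −0.11 and 0.02 against −0.05 and −0.00 for all genes. Irf1, an interferon-induced transcription factor, had 76.9 against 226 CPM in UV and 117 against 187 CPM in Rux. Socs3, a feedback inhibitor of JAK kinases, had 240, 188 and 100.2 CPM in members and 918, 472 and 136 CPM in the others. Adipogenic genes were lower for 9 of 11 in UV and 8 of 11 in Rux, beside 55.1% and 50.5% of all genes. Their medians were −1.03 and −0.49.

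Genes of coagulation and of BMP signalling, the pathways of Procr and Bmp8a, gave no common direction. Of 14 genes of coagulation and the protein C pathway outside the rule, 6 were higher and 8 lower in UV members. These shares were near the 44.9% and 55.1% of all genes. In Rux 10 of 15 were higher and 5 lower, where 49.5% of all genes were higher. Thbd, thrombomodulin, the partner of Procr in protein C activation, stood at log2 1.08 in UV and 0.78 in Rux, and Plau, urokinase, at 1.06 and 0.33, while Gas6, a ligand of TAM receptors, stood at −2.38 and −0.33, the latter −1.46 without the exclusion. Of 6 other BMP ligands 4 were higher in UV members, beside 44.9% of all genes, and 3 at least 2-fold, beside 1.93%, with Bmp2 at 1.19, Bmp6 at 1.57 and Bmp7 at 1.03. In Rux 1 of 4 was higher, with a median of −0.85, which became 1.02 without the exclusion. Of 7 BMP target genes 5 were lower in UV members, beside 55.1% of all genes, with a median of −0.22, and Id1 stood at −1.23 and Id3, like Id1 an inhibitor of differentiation, at −1.68.

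Between Rux and UV members, Hmox1 was lower in Rux, and matrix genes were higher by a size that depended on how members were chosen. Here 5.04% of genes were at least 2-fold higher and 3.81% lower in Rux members, and 54.7% were higher and 45.3% lower by any size. Hmox1 differed by log2 −2.07 (−2.25 to −1.91) in members and −1.88 in other fibroblasts, Arhgap20 by −1.83 and −1.59, Dtna by −2.26 and −2.08, and Procr by −1.37 and −0.93. These genes were thus lower in Rux in both classes. Of 17 NRF2 targets 11 were lower in Rux members, 4 at least 2-fold, with a median of −0.28 against −0.25 in other fibroblasts. Of 17 collagens 15 were higher and of 33 other matrix genes 29, with medians of 0.74 and 0.84 against −0.04 and 0.25 in other fibroblasts. With members chosen after thinning these medians fell to 0.13 and 0.42, and Hmox1 stood at −1.81, Arhgap20 at −1.02, Dtna at −0.65 and Procr at −0.56. Socs3 differed by −0.90 in members and −1.80 in other fibroblasts. Of 7 interferon genes 6 were lower in members, with a median of −0.28 that became 0.06 on thinned members. In other fibroblasts 8 of 8 interferon genes were lower, 4 at least 2-fold, with a median of −0.84. Ccl2 and Cxcl1 stood at −0.11 and −0.02 in members, and at 0.55 and 0.22 on thinned members. Sult1e1, a sulfotransferase that inactivates oestrogen, was the lowest of the named genes by the rule as given, at −2.75. It stood at −2.07 in other fibroblasts, and its value in members ran from −3.11 to −1.58 under the alternatives.

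The highest genes of Rux members often rested on few cells. Of the 10 highest, 7 had at least 25% of their Rux UMIs in 1 cell and 3 at least 50%. Igfbp2 stood at log2 7.92, but 631 of its 633 Rux UMIs lay in 1 cell, and without that cell it was at −0.02. Hp, haptoglobin, had 0, 18.0 and 531 CPM in members of CON, UV and Rux, at log2 4.87 and 4.01 without its top cell. Saa3, an acute phase protein, had 26.7, 35.5 and 827 CPM and stood at 4.53, or 4.23 without its top cell. Cxcl14 stood at 4.21, or 3.75 without its top cell. On thinned members Hp stood at 2.31 and Cxcl14 at 1.08. Under the alternatives Saa3 fell as low as 2.71 in members. Saa3 was also higher in Rux among the other fibroblasts, by 3.03, and Hp by 2.26. Prg4, the lubricant proteoglycan lubricin, had 0, 477 and 1924 CPM in the members and 149, 727 and 1317 CPM in the others.

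**Figure D5:**
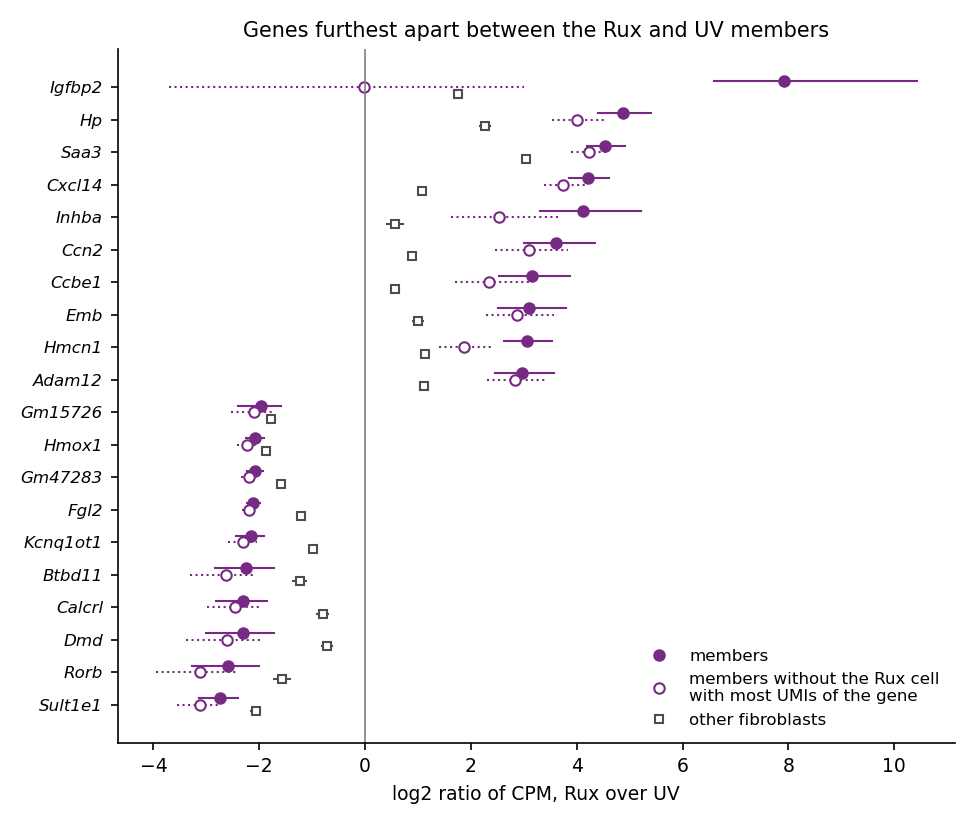
Log2 ratio of CPM, Rux over UV (x axis), of the 10 highest and 10 lowest genes in members (y axis; filled points, exact 95% intervals), in members without the Rux cell with most UMIs of the gene (open circles) and in other fibroblasts (squares). Igfbp2 stands at −0.02 without 1 cell.

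Against CON only large differences could be read, since CON members were 8 cells. Of the genes with enough UMIs 8.01% were at least 2-fold higher and 13.1% lower in UV members. Hmox1 stood at log2 4.81 (3.28 to 8.18) in members, or 2.82 on members chosen after thinning, and at 2.85 in other fibroblasts. Arhgap20 stood at 1.51 and 2.57. Procr stood at 0.64 and 0.65, but at −0.28 on thinned members. Prg4 had no UMI in CON members, so that UV members were higher by at least log2 3.57 when 3 UMIs are allowed, and other fibroblasts were higher by 2.28. Several of the lowest genes came from 1 CON cell: it held all 57 UMIs of Cacna1c and all 72 of Pcdh19, and 58 of 59 UMIs of 6 mural cell markers lay in 1 CON member, which gave the class 788 CPM of them against 45.3 in other fibroblasts.

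Markers of other cell types are given as sums over whole lists, for the cell types named below. The 9 immune markers summed to 0, 17.5 and 30.1 CPM in members of CON, UV and Rux, with Ptprc at 0 by the rule, and Cd74 led in UV at 5.99 CPM and S100a9 in Rux at 7.35 CPM. The 7 endothelial markers summed to 21.5 CPM in UV members against 51.8 in other fibroblasts, and to 55.5 against 30.2 CPM in Rux, where all 67 Pecam1 UMIs lay in 1 cell. The 8 keratinocyte markers summed to 168 and 176 CPM in UV and Rux members, led by Krt14, against 205 and 214 CPM in the other fibroblasts. The 4 mast cell markers summed to 51.4 CPM in UV members against 23.0 CPM in other fibroblasts, led by Cma1 at 23.0 CPM, with 49 of the 103 UMIs in 1 cell. In Rux they summed to 11.4 against 14.97 CPM. The 4 red blood cell markers summed to 43.5 and 138 CPM in UV and Rux members, against 94.2 and 154 CPM in other fibroblasts. Markers of perineurium, melanocytes and Schwann cells summed to 45.5, 53.4 and 37.5 CPM in UV members against 34.0, 89.0 and 50.9 CPM. For Rux these sums were 22.7, 20.7 and 27.4 CPM against 24.9, 54.1 and 34.4 CPM. The part of these cells in the results above was not tested. By Scrublet scores 0, 21 and 8 members of CON, UV and Rux were among the likely doublets. These were 0%, 9.63% and 8.51% of the members, against 2.81%, 6.33% and 6.22% of the other fibroblasts. Without such cells the shares of members were 0.251%, 4.08% and 1.92%.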

How the data were processed

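Dissociated dorsal skin gave 3 libraries, 1 per group, on the 10x Chromium 3' platform. The authors deposited raw UMI counts per gene and called cell, without filter or normalization, for 32285 genes, made by Cell Ranger against mm10 (GRCm38); the labels give version 6.1.2 and the file headers 7.0.0. Whether reads from introns were counted is not known, so the UMI levels may include them. Seurat 5.3.0 is named in the submitters' notes. Groups were taken from the labels.

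Filters and the member rule were applied to these counts in Python 3.11.15 (pandas 2.3.3, scipy 1.17.1, numpy 2.4.6, scanpy 1.11.5), and matplotlib 3.10.9 drew the figures. UMIs were summed per class and library and scaled to CPM. Log2 ratios had 0.5 UMI added to each sum, and genes entered the counts from a mean of 20 CPM and 50 UMIs over both sides. Intervals were exact (Clopper-Pearson for shares, Poisson for CPM, conditional binomial for ratios) at 95%. A share of 0 was limited by its exact upper bound, and a ratio to 0 UMIs was bounded at 3 UMIs. Neighbours used 2000 variable genes and 30 principal components, computed with numpy, with no batch correction. Doublets were the cells with the highest Scrublet scores at 0.8% per 1000 cells and were kept in the results.

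The members and gene lists were chosen with earlier results of these data known. Genes were named when the rule used them, when they belonged to the 15 highest or 10 lowest of UV members against other fibroblasts with the same sign in Rux, or the 10 highest or lowest between libraries, with at least 50 CPM and 100 UMIs, or when a passage needed them from a list. The summed ratios were tested on Poisson counts simulated from the class sums. These counts held no variation between cells, so that check does not cover genes whose UMIs lie in few cells. Alternatives were other thresholds of the rule, thinning, scaling, equal weight per cell, doublets out and other minima. Coordinates are from GENCODE M21 and promoters from RefSeq. No p-value across cells was computed. A gene that the naming rule selected is not reported here.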

Additional observations from a re-analysis of the deposited data

Results flagged for a closer look

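For 9 genes the members lay below the other fibroblasts in UV and above them in Rux, or the reverse, by at least log2 0.5 in each library. Other genes changed sign by less. The difference between the 2 libraries was not tested. Timp1, an inhibitor of matrix proteases, stood at log2 −0.77 in UV and 0.58 in Rux, Prg4 at −0.61 and 0.55, and Socs1, a feedback inhibitor of JAK kinases, at −0.72 and 0.70. Emb stood at −1.32 and 0.78 and Rnd1 at −0.68 and 0.55. Dmd, dystrophin, went the other way, at 0.73 in UV and −0.86 in Rux. Without the member cell with most UMIs of the gene, Timp1 stood at 0.28, Prg4 at 0.49, Socs1 at 0.56, Emb at 0.56 and Rnd1 at 0.37 in Rux. The opposite sign in Rux was lost for 5 of these 6 under another choice of members. With the rule on one part of the UMIs and levels in the other, Emb stood at −1.37, Rnd1 at −0.15 and Prg4 at −0.03, and without the exclusion Timp1 stood at −0.66 and Dmd at 1.17. Igfbp2 stood at −4.65 and 1.52, Pecam1 at −2.29 and 1.16 and Col8a1, a short chain collagen, at −4.03 and 0.60, and in Rux these rested on 1 cell with 99.7%, 100% and 66.7% of the UMIs. Without that cell they stood at −6.42, −5.90 and −0.93 in Rux.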

How the results depend on the processing

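No paired analysis was possible because each group is 1 library and no result comes from a test, so no library could be left out either. Alternatives added after seeing the data were the shares on the same cells not thinned and on thinned cells without the exclusion, the log2 ratios, counts and medians without the exclusion, other fibroblasts without cells of both sets, and the ratios without the top cell. UV kept the highest share except with 3 of the 5 genes and without Dtna. With 3 of the other 4 genes, the shares in CON, UV and Rux were 0.487%, 4.84% and 3.79% without Arhgap20, 1.22%, 6.92% and 5.76% without Bmp8a, 1.83%, 8.08% and 8.66% without Dtna, and 1.04%, 6.53% and 3.79% without Pla1a. With at least 3 of the 5 genes they were 2.04%, 9.07% and 9.24%, with all 5 genes 0%, 1.43% and 0.231%, without the exclusion 1.10%, 14.8% and 5.66%, and without it on thinned cells 0.918%, 13.5% and 2.81%. In UV the share was 7.29% on thinned cells and 5.60% on the same cells not thinned, and the 2% matrix threshold gave 1.96% in UV and 1.51% in Rux. Neighbours that were members made up 36.7% in UV and 18.3% in Rux on thinned cells. Without the exclusion, the genes at least 2-fold higher and lower changed from 287 and 217 to 110 and 108 for Rux over UV, from 391 and 638 to 168 and 398 for UV over CON, from 171 and 342 to 77 and 143 against Dpp4 fibroblasts in UV, from 126 and 129 to 48 and 42 against them in Rux, and from 44 and 91 to 164 and 208 against other fibroblasts in Rux. In UV the 113 higher than in other fibroblasts became 201, 179 with equal weight per cell, 209 without cells of both sets, and 175 with the rule on one part of the UMIs and levels in the other. In Rux the 44 became 75 with equal weight and 159 with the divided UMIs, where the 91 lower became 196. Genes higher in Rux than in UV were 153 when members were chosen after thinning. A minimum of 100 CPM gave 4.51% higher for UV over CON, 2.65% lower against Dpp4 fibroblasts in UV and 0.996% lower against other fibroblasts in Rux. No minimum in CPM gave 3.06% higher and 9.37% lower against other fibroblasts in Rux, 3.01% and 15.6% in UV, and 4.08% and 10.4% lower against Dpp4 fibroblasts in Rux and UV. On members chosen after thinning, genes past a 2-fold ratio changed direction for Adamts4 (0.23), Cacna1c (0.0645) and Pcdh19 (3.25) for UV over CON and for Ccn2 (−0.0187) and Igfbp2 (−0.36) for Rux over UV. Without the top cell Igfbp2 was −0.0184 for Rux over UV, and Igfbp2 and Pecam1 were −6.42 and −5.90 against other fibroblasts in Rux, where Igfbp2 was −0.0422 without the exclusion. Smaller ratios also changed sign, among them Procr for UV over CON (−0.28) and Ccl2 (0.55) and Cxcl1 (0.22) for Rux over UV. Among the list medians that changed sign were, without the exclusion, adipogenic genes for Rux over UV (−0.18), BMP ligands against other fibroblasts in Rux (1.02), coagulation for Rux over UV (0.16), adventitial genes (0.06) and collagens against Dpp4 fibroblasts in Rux (−0.14), on thinned members adventitial genes (0.19), interferon genes (0.06) and coagulation (0.14) for Rux over UV, and with the divided UMIs BMP ligands (0.37) and other matrix genes (−0.51) against other fibroblasts in Rux. The cause was not tested. The number of cells limits CON members most, where 8 cells make 1 UMI equal to 13.4 CPM.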
